A study of Mus musculus with 36 samples.

Results

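The Toll-like receptors are the sensors with which animal cells recognise molecules of bacteria and viruses, and 10 receptor genes of the mouse, Tlr1 to Tlr9 and Tlr13, were followed here out of the 52636 genes listed for each library. They were chosen by gene symbol and by no threshold on measured values, but earlier results of these data were known. RNA was sequenced from whole intestines of embryos at E18.5 and from mouse embryonic fibroblasts (MEFs), in 12 groups of 3 libraries each and 36 libraries in all, with no treatment. The first set of intestines, called the D387A set here, held Mlkl-/- controls, Casp8 1xDA/1xDA embryos (D387A, in which caspase-8 cannot be cleaved at that aspartate), and D387A Cflar-/- Mlkl-/- embryos, alone or lacking in addition Casp1, Casp1 and Ifnar1, or Casp1 and Fadd. The second set, called the C362A set, held its own Mlkl-/- controls and Casp8 C362A/C362A embryos (C362A, in which the catalytic cysteine of caspase-8 is replaced) that were Mlkl-/-, Mlkl-/- Casp1-/- or Cflar-/- Mlkl-/-. The MEFs were Mlkl-/- or D387A Cflar-/- Mlkl-/-.

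All groups but one lacked Mlkl, the effector of necroptosis, so that necroptosis was also disabled in the controls. The exception is D387A alone, which carried intact Mlkl and Cflar and therefore differed from its controls at Casp8 and at Mlkl. All alleles were germline, so every cell of an embryo carried them, and in the D387A set the Cflar deletion came from 1 mosaic founder. The sample titles give the Mlkl-/- controls and the D387A Cflar-/- Mlkl-/- embryos of that set one number prefix and each further genotype a prefix of its own. What the prefix marks is not stated, and it cannot be told apart from genotype in those comparisons.

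Toll-like receptors are membrane proteins whose leucine-rich repeats bind a ligand and whose cytoplasmic TIR domain recruits adaptors. Tlr1, Tlr2, Tlr4, Tlr5 and Tlr6 act mainly at the cell surface: Tlr2 pairs with Tlr1 or Tlr6 to bind bacterial lipopeptides, Tlr4 with its partners Ly96 and Cd14 binds lipopolysaccharide, and Tlr5 binds flagellin. Tlr3, Tlr7, Tlr8, Tlr9 and Tlr13 act in endosomes and sense nucleic acids: double-stranded RNA for Tlr3, single-stranded RNA for Tlr7, bacterial ribosomal RNA for Tlr13 and unmethylated CpG DNA for Tlr9. Most of them signal through Myd88 to NF-κB, Tlr3 signals through Ticam1, and Tlr4 uses both. Macrophages, monocytes and neutrophils carry many of these receptors, whereas Tlr5 in the mouse intestine is known mainly from epithelial cells.

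Several receptor genes are themselves known targets of NF-κB or interferon signalling, so the promoter sequences of the members are shown for those motifs. RefSeq promoters (GRCm38.p6; 250 bases before to 50 bases after the start) were found for 8 of the 10 members, and for Tlr4 and Tlr7 none was used here. Both strands were searched for a κB motif, for the interferon-stimulated response element, GAAA and GAAA parted by NN, and for the gamma-activated site TTCNNNGAA. Of all 32851 promoters searched, 8.46% held the first, 3.44% the second and 8.3% the third. The κB motif matched in Tlr2 and Tlr3, the response element in Tlr6, and the gamma-activated site in Tlr1, Tlr6 and Tlr8. None of the 3 was found in the windows of Tlr5, Tlr9 and Tlr13. The stretches below run 5′ to 3′ on the gene's strand, which is the minus strand in each, with the matched letters in capitals.
Tlr2, κB, chr3:83841768-83841811: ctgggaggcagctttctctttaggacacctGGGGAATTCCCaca
Tlr2, κB, chr3:83841607-83841626: ccctgacctgGGGACATCCC
Tlr3, κB, chr8:45410572-45410601: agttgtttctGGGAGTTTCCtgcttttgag
Tlr6, interferon-stimulated response element, chr5:64959237-64959312: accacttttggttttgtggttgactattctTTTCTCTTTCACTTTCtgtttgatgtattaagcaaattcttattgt
Tlr6, gamma-activated site, chr5:64960043-64960061: aacttattttTTCAGAGAA
Tlr1, gamma-activated site, chr5:64932909-64932937: agtagctagcTTCATCGAAgcagagatgc
Tlr8, gamma-activated site, chrX:167264397-167264465: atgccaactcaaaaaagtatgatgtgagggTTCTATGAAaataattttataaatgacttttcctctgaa
The first Tlr2 stretch holds 2 overlapping κB matches and the Tlr6 element 2 overlapping response elements on the opposite strand. The distances from match to start were 173 and 8 bases in Tlr2, 211 in Tlr3, 116 and 3 in Tlr6, 228 in Tlr1 and 106 in Tlr8. By the gene annotation, the matches at 8 bases in Tlr2, 211 in Tlr3, 3 in Tlr6 and 228 in Tlr1 lie in exons of those genes. A further gamma-activated site match in Tlr6, 7 bases after the start, is not printed above. A match is a run of letters and not evidence that a factor binds.

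The genes are given here on GRCm38 from the first to the last annotated base. Tlr1 (chr5:64924679-64933563) and Tlr6 (chr5:64952031-64960097) are neighbours on the minus strand, as are Tlr7 (chrX:167304929-167330558) and Tlr8 (chrX:167242696-167264329). Tlr13 (chrX:106143204-106160493) lies elsewhere on the X chromosome. Tlr2 (chr3:83836272-83841767) and Tlr3 (chr8:45395665-45411080) are on the minus strand, and Tlr4 (chr4:66827584-66930284), Tlr5 (chr1:182954788-182976044), Tlr9 (chr9:106222598-106226883) and Tlr13 on the plus strand. The antisense gene Gm45542 overlaps Tlr3. Whether the counting used strand is not known, so reads of Tlr3 and of Gm45542 may not be separated.

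Between 17943524 and 32307629 reads per library fell on genes, and a member had between 0 and 967 of them, so the receptors were weakly expressed and their values carry counting error beside the spread between embryos. Casp1 was at most 0.212 RPKM (reads scaled by gene length and library size) in all groups labelled Casp1-/- and Fadd at most 1.01 RPKM in the group labelled Fadd-/-. Ifnar1 was at 33.2 to 37.9 RPKM in the Ifnar1-/- group, against 88.6 to 93.6 RPKM in D387A Cflar-/- Mlkl-/- Casp1-/- embryos, so part of its RNA remained. Reads on Cflar and Mlkl were not lost in the groups labelled as lacking them, so whole-gene counts do not check those labels. Markers of other cells also differed between genotypes. The 7 enterocyte markers summed to 33950 to 38680 RPKM in the Mlkl-/- controls of the D387A set and to 1382 to 2847 RPKM in D387A Cflar-/- Mlkl-/- intestines. Between the same groups the summed 12 macrophage and monocyte markers were 216 to 242 RPKM and 327 to 432 RPKM, and the 10 neutrophil markers 9.13 to 38.9 RPKM and 68.0 to 244 RPKM, the highest value belonging to the third mutant embryo. The sums for dendritic cells (6 genes), endothelium (5), fibroblasts (7) and smooth muscle (5) were also above the controls without overlap, and those for B cells (5) and T and NK cells (7) overlapped. In such bulk RNA, a change in the number of cells of a type and a change in RNA per cell cannot be told apart.

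**Figure D1:**
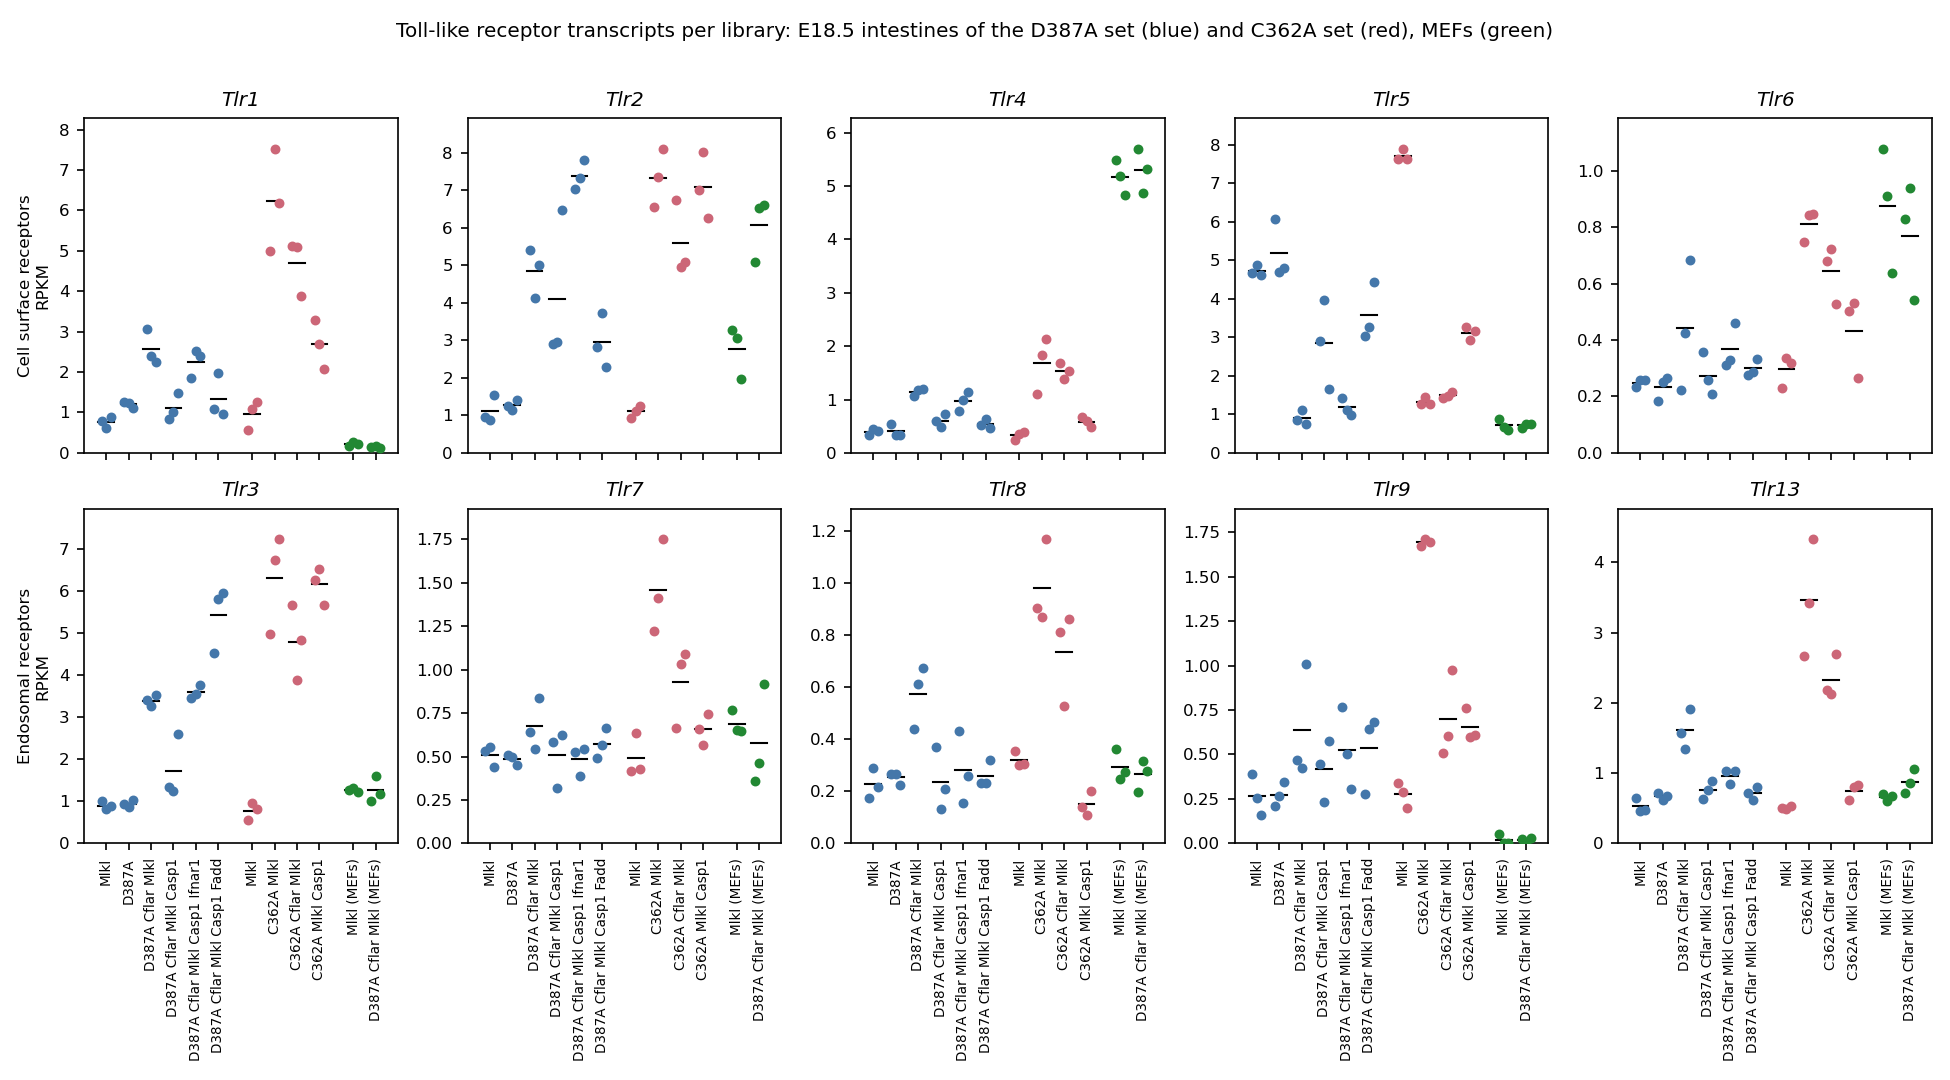
Level of each receptor gene in RPKM (vertical axis, linear from 0) in every library, by genotype, where genes named after the Casp8 allele, and Mlkl where it stands alone, are those knocked out. Points are single libraries, black lines the mean of 3, and the sets are blue (D387A intestines), red (C362A intestines) and green (MEFs). Tlr5 is high in the controls of both intestine sets and low in D387A Cflar-/- Mlkl-/- and C362A Mlkl-/- intestines, whereas Tlr1, Tlr2, Tlr3 and Tlr13 run the other way.

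In control intestines Tlr5 was the most abundant receptor transcript. RPKM, which corrects for gene length, allows the members to be set in order. Tlr5 stood at 4.72 ± 0.140 RPKM (SD, n = 3) in the Mlkl-/- controls of the D387A set and at 7.71 ± 0.152 RPKM in those of the C362A set, which was 48.7% and 60.3% of the summed RPKM of the 10 receptors. Next in the D387A set came Tlr2 (1.12 ± 0.366), Tlr3 (0.896 ± 0.0970) and Tlr1 (0.765 ± 0.131). Tlr13 (0.531 ± 0.0999), Tlr7 (0.511 ± 0.0610) and Tlr4 (0.395 ± 0.0568) followed, and Tlr9 (0.269 ± 0.117), Tlr6 (0.250 ± 0.0143) and Tlr8 (0.229 ± 0.0579) were lowest. Below Tlr5, each receptor overlapped the next in this order in its libraries, so neighbours in it are not separated.

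The leading receptor differed with genotype. Tlr5 also led in D387A intestines, with 47.5% of the summed RPKM. Tlr2 led in D387A Cflar-/- Mlkl-/- intestines with 28.9% and in those also lacking Casp1 and Ifnar1 with 41.0%. In D387A Cflar-/- Mlkl-/- Casp1-/- intestines the mean of Tlr2 was 32.7% of the sum, but only the third embryo put it first (6.48 against 1.66 RPKM of Tlr5). In the second embryo Tlr5 was higher, at 3.97 against 2.95 RPKM, and in the first both were at 2.90 RPKM. Tlr3 led where Casp1 and Fadd were lost as well, with 33.4%. In the C362A set Tlr2 held 23.4% in C362A Mlkl-/-, 31.9% in C362A Mlkl-/- Casp1-/- and 23.9% in C362A Cflar-/- Mlkl-/- intestines, the highest mean each time. Single embryos differed, as Tlr1 was above Tlr2 in the second C362A Mlkl-/- embryo (7.52 against 7.36 RPKM) and in the second C362A Cflar-/- Mlkl-/- embryo (5.11 against 4.96 RPKM). The sum over all 10 receptors was 9.69 RPKM in the controls and 16.8 RPKM in D387A Cflar-/- Mlkl-/- intestines, and in the C362A set it was 12.8 RPKM in the controls and 31.3 RPKM in C362A Mlkl-/- intestines.

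**Figure D2:**
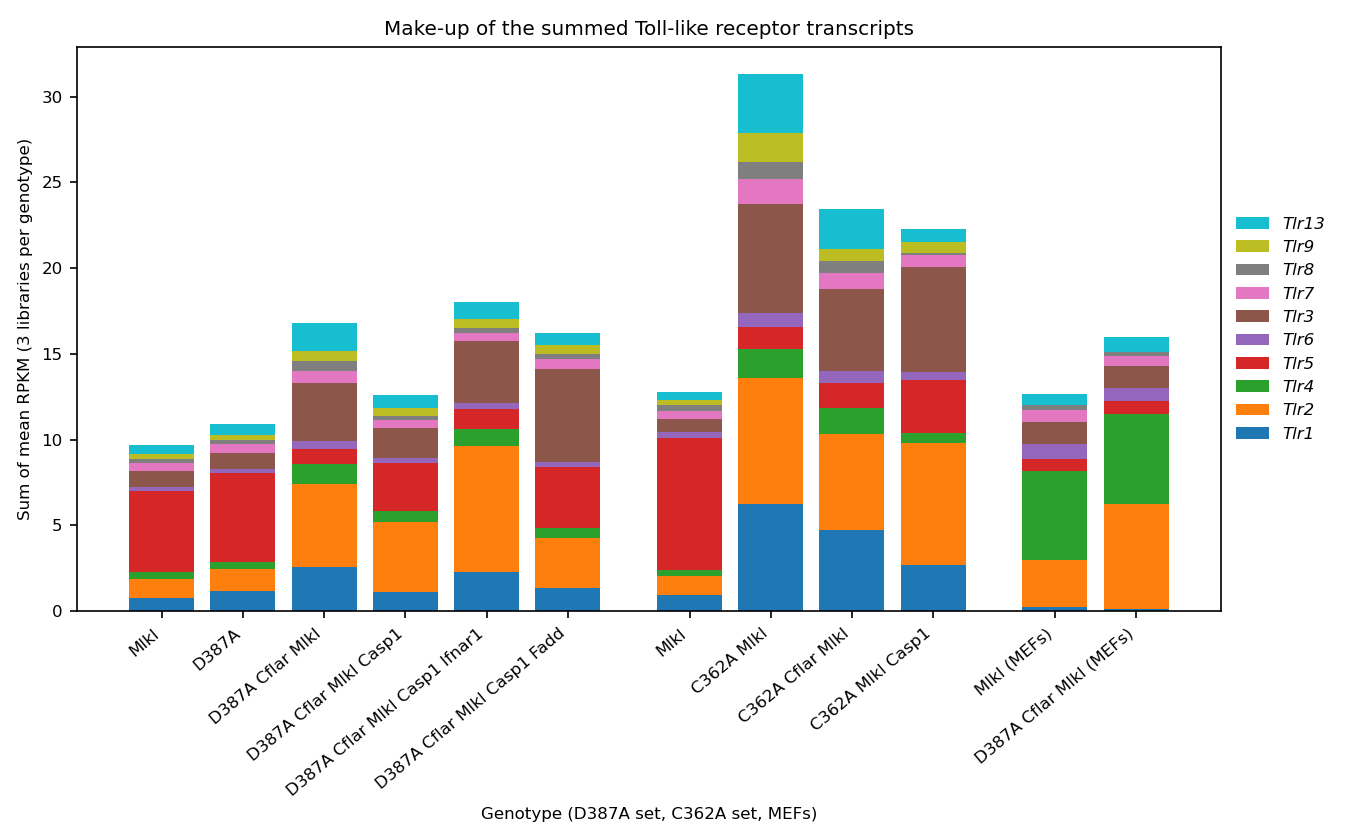
Mean RPKM of the 10 receptor genes (vertical axis, linear) stacked for each of the 12 genotypes; each colour is 1 gene and each column the mean of 3 libraries. Tlr5 makes up 48.7% and 60.3% of the columns of the 2 intestine controls, and Tlr4 40.7% of that of Mlkl-/- MEFs.

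In D387A intestines with intact Cflar no receptor was called. Against Mlkl-/- controls, edgeR called 0 of 10 members, where a call needs a log2 fold change beyond 1 in either direction and an adjusted p under 0.05 over all genes, and where 0.00545% of all genes tested were called. At an unadjusted p under 0.05 there was 1 member, and limma-voom and DESeq2 also called 0. It was Tlr1, with 1.26, 1.25 and 1.12 RPKM in the D387A embryos against 0.792, 0.623 and 0.882 RPKM in the controls. The groups did not overlap, as for 15.6% of all genes, but the log2 fold change of 0.65 had an adjusted p of 0.966. The members' median log2 fold change was 0.0974, and that of all genes was 0.0184.

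D387A Cflar-/- Mlkl-/- intestines, which differ from the controls at Casp8 and Cflar, had higher levels of 7 receptors and a lower level of Tlr5. Against the Mlkl-/- controls, 7 of 10 members were called higher and 1 lower, while 9.4% of all genes tested were called higher and 12.8% lower. Of all calls in this comparison 42.3% were higher, and 58.2% were when library totals were left unscaled. The members' median log2 fold change was 1.43, and that of all genes was -0.00646. The groups did not overlap for 8 members, as for 68.1% of all genes. The same 3 control embryos serve every comparison within the set.

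Among the surface receptors, Tlr2 measured 5.42, 4.14 and 4.999 RPKM in D387A Cflar-/- Mlkl-/- embryos and 0.953, 0.872 and 1.54 RPKM in the controls. All mutant values were above all control values, and the difference was 4.31-fold (log2 fold change 2.11, SE 0.287, adjusted p = 6.5e-06). Its partner Tlr1 rose from 0.792, 0.623 and 0.882 RPKM to 3.07, 2.39 and 2.24 RPKM (3.35-fold, log2 fold change 1.74, SE 0.260, adjusted p = 1.76e-05), again without overlap. Its other partner Tlr6 had 0.223, 0.426 and 0.685 RPKM against 0.233, 0.257 and 0.258 RPKM. The groups overlapped, and the log2 fold change of 0.84 stayed under the fold threshold (adjusted p = 0.0366). Without the first mutant embryo it was 1.15 (adjusted p = 0.00229) and was called.

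Tlr4, the lipopolysaccharide receptor, measured 1.06, 1.18 and 1.21 RPKM against 0.332, 0.442 and 0.412 RPKM in the controls, a rise of 2.90-fold (log2 fold change 1.54, SE 0.213, adjusted p = 7.7e-06). Tlr5, the flagellin receptor, moved the other way. It fell from 4.66, 4.88 and 4.62 RPKM to 0.844, 1.11 and 0.762 RPKM, which was 5.21-fold lower (log2 fold change -2.38, SE 0.255, adjusted p = 3.88e-07). The lowest control was far above the highest mutant, and all 7 enterocyte markers were called lower in the same comparison. The 8 general epithelial markers, among them Epcam and Cdh1, went the other way, with sums of 2326 to 2470 RPKM in the mutants and 1758 to 1978 RPKM in the controls and 2 of 8 called higher. The part of enterocyte RNA in the fall of Tlr5 was not tested.

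Among the endosomal receptors, Tlr3 measured 3.40, 3.26 and 3.52 RPKM against 1.00, 0.808 and 0.880 RPKM in the controls. The 3 mutant values lay close together, and the rise was 3.78-fold (log2 fold change 1.92, SE 0.212, adjusted p = 5.78e-07). Tlr13, the sensor of bacterial ribosomal RNA, rose from 0.646, 0.466 and 0.480 RPKM to 1.57, 1.34 and 1.91 RPKM (3.03-fold, log2 fold change 1.60, SE 0.182, adjusted p = 8.31e-07). Tlr8 rose from 0.176, 0.291 and 0.219 RPKM to 0.440, 0.612 and 0.676 RPKM (log2 fold change 1.33, SE 0.359, adjusted p = 0.00403), without overlap. Tlr7 had 0.643, 0.541 and 0.837 RPKM against 0.534, 0.557 and 0.442 RPKM, and its log2 fold change of 0.40 did not pass the test (adjusted p = 0.152).

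Tlr9 was called, but less firmly. It measured 0.472, 0.424 and 1.01 RPKM against 0.391, 0.257 and 0.158 RPKM, and the third mutant embryo, the one with the highest neutrophil markers, was also highest for Tlr9. The log2 fold change of 1.25 (SE 0.464, adjusted p = 0.0284) became 0.74 (adjusted p = 0.209) without that embryo. Leaving out the second control gave 1.22 (adjusted p = 0.0672), and leaving out the third control gave 0.97 (adjusted p = 0.119). Without the third mutant embryo, the other calls of this comparison remained, with log2 fold changes of 1.83 for Tlr1, 2.09 for Tlr2, 1.89 for Tlr3, 1.5 for Tlr4, 1.20 for Tlr8, 1.46 for Tlr13 and -2.27 for Tlr5.

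**Figure D3:**
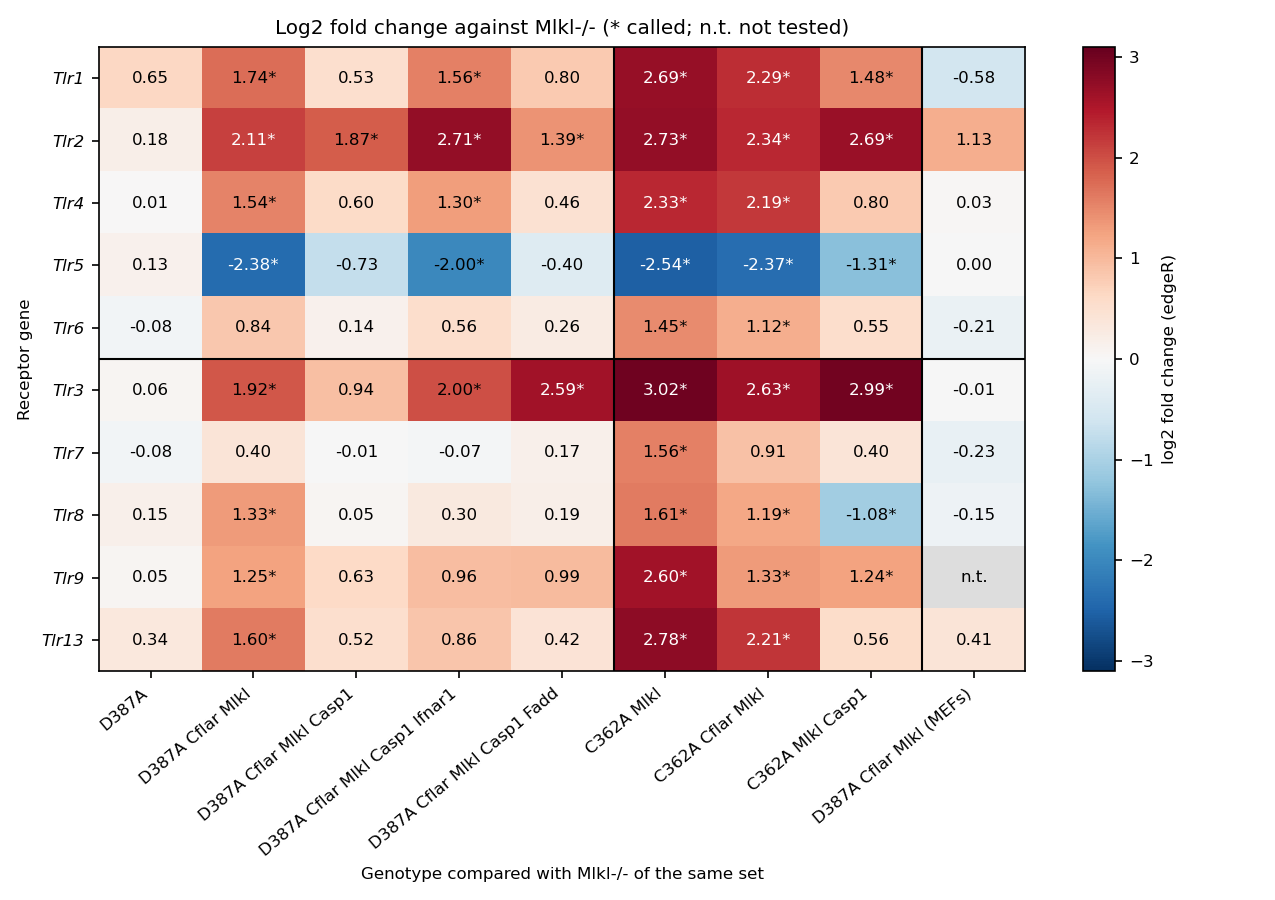
Log2 fold change of each receptor gene against the Mlkl-/- controls of its own set (colour and printed value) for 9 genotypes, with an asterisk where the gene was called and n.t. for Tlr9 in MEFs, which was not tested. The column of D387A alone and that of the MEFs hold no call, whereas all 10 genes are called in C362A Mlkl-/- intestines.

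In the C362A set every receptor changed without any loss of Cflar. Comparing C362A Mlkl-/- with Mlkl-/- intestines, 9 of 10 members were called higher and Tlr5 lower, while 10.4% of all genes tested were called higher and 7.55% lower. The 2 groups did not overlap for any member, as for 53.6% of all genes. Leaving out each embryo in turn left 10 members called each time. The members' median log2 fold change was 2.47, and that of all genes was 0.0181.

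Tlr2 measured 6.55, 7.36 and 8.11 RPKM in C362A Mlkl-/- embryos and 0.940, 1.13 and 1.24 RPKM in the controls (log2 fold change 2.73, SE 0.175, adjusted p = 2.23e-08). Tlr1 measured 4.98, 7.52 and 6.19 RPKM against 0.566, 1.08 and 1.26 RPKM (log2 fold change 2.69, SE 0.269, adjusted p = 1.77e-06). Every mutant value of these lipopeptide receptors was above every control value. Tlr6 rose from 0.230 to 0.337 RPKM to 0.748 to 0.845 RPKM (log2 fold change 1.45, SE 0.268, adjusted p = 0.00051). Tlr4 rose from 0.249, 0.359 and 0.399 RPKM to 1.11, 1.83 and 2.13 RPKM (adjusted p = 3.95e-06). Tlr5 fell from 7.62, 7.89 and 7.63 RPKM to 1.26, 1.45 and 1.28 RPKM, or 5.80-fold (SE of the log2 fold change 0.125, adjusted p = 1.97e-09), with little spread within either group.

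Of the members, Tlr3 had the largest fitted rise here. It measured 4.96, 6.74 and 7.22 RPKM against 0.566, 0.951 and 0.806 RPKM, which was 8.13-fold higher (log2 fold change 3.02, SE 0.210, adjusted p = 4.53e-08). Tlr13 rose from 0.498, 0.492 and 0.526 RPKM to 2.66, 3.42 and 4.33 RPKM (log2 fold change 2.78, SE 0.207, adjusted p = 8.66e-08). Tlr9 measured 1.67, 1.71 and 1.69 RPKM against 0.338, 0.287 and 0.200 RPKM (log2 fold change 2.60, SE 0.263, adjusted p = 1.95e-06), and its 3 mutant values were nearly equal. Tlr7 rose from 0.418 to 0.634 RPKM to 1.22 to 1.75 RPKM (log2 fold change 1.56, SE 0.243, adjusted p = 0.000127) and Tlr8 from 0.301 to 0.354 RPKM to 0.872 to 1.17 RPKM (log2 fold change 1.61, SE 0.258, adjusted p = 0.000157).

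Myeloid markers were higher in the same intestines. The summed neutrophil markers were 19.5 to 53.7 RPKM in the controls and 582 to 716 RPKM in C362A Mlkl-/- intestines, with 6 of the 9 tested called higher, among them Cxcr2 (log2 fold change 5.95), a chemokine receptor of neutrophils. Of 12 macrophage and monocyte markers 8 were called higher, and their sum was 184 to 221 RPKM in the controls and 566 to 576 RPKM in the mutants. The enterocyte sum was 29510 to 48450 RPKM in the controls and 14700 to 18340 RPKM in the mutants, with 5 of 7 called lower. The 6 dendritic cell markers summed to 3.15 to 3.86 RPKM in the controls and 11.2 to 13.9 RPKM in the mutants. B cell and epithelial sums were also above the controls without overlap. The part of these cells in the receptor values was not tested.

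C362A Cflar-/- Mlkl-/- intestines, which lack Cflar as well, had 8 members called higher and Tlr5 lower, against 13.4% and 11.2% of all genes tested. Values did not overlap between the groups for any of the 10 members, as for 55% of all genes. Tlr3 measured 5.66, 3.88 and 4.82 RPKM (log2 fold change 2.63), Tlr2 6.74, 4.96 and 5.09 RPKM (2.34), Tlr1 5.13, 5.11 and 3.89 RPKM (2.29) and Tlr4 1.69, 1.38 and 1.53 RPKM (2.19), all above every control. The member that was not called was Tlr7, with 0.663, 1.03 and 1.09 RPKM and a log2 fold change of 0.91 (SE 0.246, adjusted p = 0.00645). It was called without the second control (1.16) and without the first mutant embryo (1.096), and Tlr6 was no longer called without the first control (0.98). The enterocyte sum was 2344 to 7212 RPKM in these intestines against 29510 to 48450 RPKM in the controls, with 6 of 7 markers called lower, and the macrophage and monocyte sum 396 to 535 RPKM against 184 to 221 RPKM. Sums for neutrophils, dendritic cells, B cells and smooth muscle were also above the controls without overlap. The part of these cells in the receptor values was not tested.

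Set directly against C362A Mlkl-/- intestines, the additional loss of Cflar went with a lower level of 1 member, while 4.62% of all genes tested were called lower and 1.45% higher. There was no overlap between groups for 4 members, as for 32.3% of all genes. Tlr9 fell from 1.67, 1.71 and 1.69 RPKM to 0.511, 0.606 and 0.978 RPKM (log2 fold change -1.27, SE 0.240, adjusted p = 0.00238). The log2 fold changes of Tlr7 (-0.65, adjusted p = 0.0644) and Tlr13 (-0.57, adjusted p = 0.0431) were negative but not called. The neutrophil markers summed to 300 to 490 RPKM in C362A Cflar-/- Mlkl-/- intestines, below the 582 to 716 RPKM of C362A Mlkl-/- intestines. The enterocyte sum was 2344 to 7212 RPKM against 14700 to 18340 RPKM, the macrophage and monocyte sum 396 to 535 RPKM against 566 to 576 RPKM, and the dendritic cell sum 7.29 to 8.5 RPKM against 11.2 to 13.9 RPKM, all without overlap. Smooth muscle markers were higher, with 2047 to 2692 RPKM against 1094 to 1498 RPKM. The part of these cells in the receptor values was not tested.

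The allele effects were compared in 1 fit of both intestine sets, as the difference between D387A Cflar-/- Mlkl-/- and its controls minus that between C362A Cflar-/- Mlkl-/- and its own. Among the members, edgeR called 0 of 10, and 0.0764% of all genes, and limma-voom also called 0. The 12 fits that left out 1 embryo each called 0 members, but between 0 and 645 of all genes, against 15 with all embryos. At an unadjusted p under 0.05 there were 2, Tlr3 with a difference of -0.71 (adjusted p = 0.193) and Tlr13 with -0.61 (adjusted p = 0.2), both smaller in the D387A set. Each set has its own controls and its own Cflar deletion, so set and allele cannot be told apart beyond what the controls remove.

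On loss of Casp1, which encodes caspase-1, the protease of inflammasomes, some receptors fell and others did not. In D387A Cflar-/- Mlkl-/- intestines, Casp1 loss went with 3 of 10 members called lower and Tlr5 higher. Of all genes tested, 4.51% were called lower and 8.88% higher. In C362A Mlkl-/- intestines it went with 6 members lower and Tlr5 higher, against 5.72% lower and 5.6% higher. In the D387A set the title prefix cannot be told apart from Casp1 here. The members' median log2 fold changes were -0.818 and -1.18, with medians of 0.0293 and -0.0208 over all genes. The groups did not overlap for 6 members in the D387A set, as for 53.2% of all genes, and for 8 members in the C362A set, as for 53.5% of all genes.

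Tlr2 and Tlr3 were the members with the smallest change in C362A intestines. Tlr2 measured 6.999, 8.03 and 6.26 RPKM in C362A Mlkl-/- Casp1-/- embryos and 6.55, 7.36 and 8.11 RPKM in C362A Mlkl-/- embryos (log2 fold change -0.05, SE 0.157, adjusted p = 0.838). Tlr3 measured 6.27, 6.53 and 5.66 RPKM against 4.96, 6.74 and 7.22 RPKM (log2 fold change -0.04, SE 0.186, adjusted p = 0.898). Both pairs of groups overlapped, and in both genotypes every value was above every Mlkl-/- control.

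The other endosomal receptors fell. Tlr8 went from 0.906, 0.872 and 1.17 RPKM to 0.140, 0.109 and 0.202 RPKM, which was 6.46-fold lower (log2 fold change -2.69, SE 0.286, adjusted p = 8.46e-06). Tlr13 went from 2.66, 3.42 and 4.33 RPKM to 0.614, 0.799 and 0.825 RPKM, or 4.65-fold lower (log2 fold change -2.22, SE 0.200, adjusted p = 1.98e-06). The highest Casp1-/- value of each was far below the lowest value with Casp1. Tlr9 fell from 1.67 to 1.71 RPKM to 0.598 to 0.762 RPKM (log2 fold change -1.36, adjusted p = 0.000702) and Tlr7 from 1.22 to 1.75 RPKM to 0.567 to 0.742 RPKM (log2 fold change -1.15, adjusted p = 0.00211).

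Of the surface receptors, Tlr4 fell from 1.11, 1.83 and 2.13 RPKM to 0.669, 0.594 and 0.486 RPKM (adjusted p = 0.000272) and Tlr1 from 4.98, 7.52 and 6.19 RPKM to 3.30, 2.69 and 2.08 RPKM (log2 fold change -1.21, adjusted p = 0.00208). Tlr6 had a log2 fold change of -0.90 (adjusted p = 0.0156) and was not called, unless the first (-1.03) or the second (-1.09) Casp1-/- embryo was left out. Tlr5 rose from 1.26, 1.45 and 1.28 RPKM to 3.26, 2.94 and 3.16 RPKM (log2 fold change 1.23, adjusted p = 4.81e-06), which left it below the 7.62 to 7.89 RPKM of the controls. In the same comparison 6 of the 9 tested neutrophil markers and 5 of 12 macrophage and monocyte markers were called lower, and 6 of 7 enterocyte markers higher. The neutrophil sum of 54.3 to 78.7 RPKM was just above the range of the controls, and the enterocyte sum of 45640 to 57730 RPKM overlapped theirs. The dendritic cell sum was 4.22 to 5.09 RPKM after Casp1 loss, against 11.2 to 13.9 RPKM with Casp1, and the macrophage and monocyte sum 320 to 358 RPKM against 566 to 576 RPKM. B cell and fibroblast sums were also lower and the T and NK cell sum higher without overlap. The part of these cells in the receptor values was not tested.

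In the D387A set, Tlr1 fell on Casp1 loss from 3.07, 2.39 and 2.24 RPKM to 0.831, 1.01 and 1.48 RPKM (log2 fold change -1.22, SE 0.248, adjusted p = 0.000669). Tlr13 fell from 1.57, 1.34 and 1.91 RPKM to 0.627, 0.764 and 0.892 RPKM (log2 fold change -1.08, SE 0.174, adjusted p = 7.55e-05). Tlr8 fell from 0.440, 0.612 and 0.676 RPKM to 0.371, 0.131 and 0.208 RPKM (log2 fold change -1.28, SE 0.352, adjusted p = 0.00653). These groups did not overlap, but Tlr13 dropped under the fold threshold without the third embryo with Casp1 (-0.94) or the first without it (-0.96), and Tlr8 without the second Casp1-/- embryo (-0.98). Tlr5 rose from 0.844, 1.11 and 0.762 RPKM to 2.90, 3.97 and 1.66 RPKM (log2 fold change 1.65, SE 0.255, adjusted p = 4.92e-05). The enterocyte markers, all 7 called higher, summed to 1382 to 2847 RPKM with Casp1 and to 18230 to 24960 RPKM without it. The neutrophil sum was 68.0 to 244 RPKM with and 16.5 to 50.3 RPKM without Casp1, with 5 of the 9 tested called lower and 1 higher. Sums for fibroblasts, smooth muscle and T and NK cells were also lower without overlap. The part of these cells in the receptor values was not tested.

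The third D387A Cflar-/- Mlkl-/- Casp1-/- embryo stood apart from the other two. Its Tlr2 was 6.48 RPKM against 2.90 and 2.95 RPKM, its Tlr3 2.59 RPKM against 1.35 and 1.24 RPKM, and its Tlr5 1.66 RPKM against 2.90 and 3.97 RPKM. Its macrophage and monocyte markers summed to 447 RPKM, and those of the other two to 280 and 296 RPKM. With all embryos, the log2 fold changes on Casp1 loss were -0.24 for Tlr2 (SE 0.259, adjusted p = 0.471), -0.98 for Tlr3 (adjusted p = 0.000682) and -0.94 for Tlr4 (adjusted p = 0.00107), none of them called. Without that embryo Tlr3 (-1.39, adjusted p = 1.95e-07) and Tlr4 (-1.09, adjusted p = 0.000502) were called. Tlr3 was also called without the second D387A Cflar-/- Mlkl-/- embryo with Casp1 (-1.004), and Tlr6 without the first (-1.02).

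**Figure D4:**
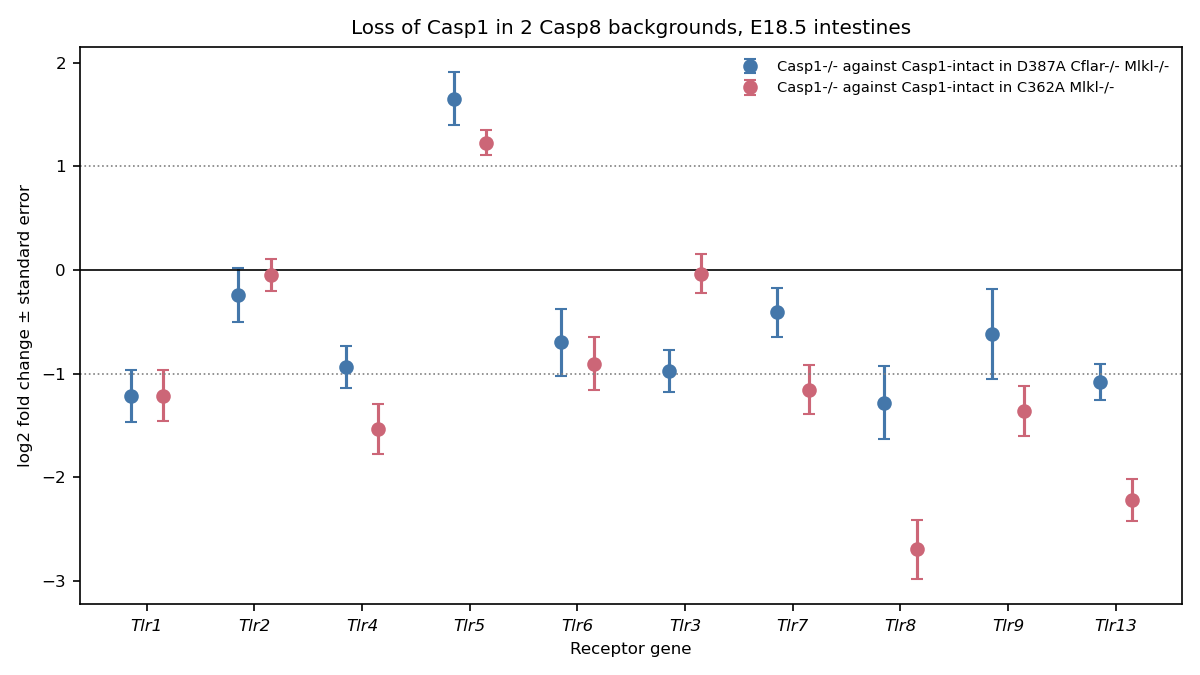
Log2 fold change on loss of Casp1 (vertical axis, bars are the standard error from the fit) for each receptor gene (horizontal axis), in D387A Cflar-/- Mlkl-/- (blue) and in C362A Mlkl-/- (red) intestines. Dotted lines mark the fold threshold of 1 in either direction. Tlr2 and Tlr3 lie at -0.05 and -0.04 in the C362A set, where Tlr8 and Tlr13 lie at -2.69 and -2.22.

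The change on Casp1 loss was compared between the 2 backgrounds, which differ in the Casp8 allele and in Cflar, by an interaction term, and 2 of 10 members were called, as were 5.73% of all genes. Tlr13 fell more in the C362A background by 1.16 on the log2 scale (SE 0.258, adjusted p = 0.00377), and Tlr8 by 1.44 (SE 0.468, adjusted p = 0.0356). The Tlr8 call was lost in 6 of the 12 fits that left out 1 embryo, with values of 1.28 and 1.48 without the first and the second D387A Cflar-/- Mlkl-/- embryo, 0.95 without the first D387A Cflar-/- Mlkl-/- Casp1-/- embryo, 1.30 without the third C362A Mlkl-/- embryo, and 1.39 and 1.25 without the first and the second C362A Mlkl-/- Casp1-/- embryo. Tlr13 was lost only without the third C362A Mlkl-/- embryo (0.98). Tlr3 differed the other way, by -0.91 (SE 0.287, adjusted p = 0.0293), under the fold threshold. It passed the threshold without the third D387A Cflar-/- Mlkl-/- Casp1-/- embryo (-1.32, adjusted p = 0.00053) or the third C362A Mlkl-/- embryo (-1.02), and Tlr7 was called without the second D387A Cflar-/- Mlkl-/- Casp1-/- embryo (1.02).

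Against the Mlkl-/- controls, D387A Cflar-/- Mlkl-/- Casp1-/- intestines kept 1 called member, Tlr2, while 2.16% of all genes tested were called higher and 2.18% lower. Values did not overlap between the groups for 4 members, as for 37.5% of all genes. Tlr2 was at 2.90, 2.95 and 6.48 RPKM (log2 fold change 1.87, SE 0.288, adjusted p = 0.00032), and without the third embryo the log2 fold change was 1.38 (adjusted p = 0.000315). Tlr3 had a log2 fold change of 0.94 (SE 0.216, adjusted p = 0.00531), and was called at 1.02 without the first control, at 1.09 without the first mutant embryo and at 1.13 without the second. Tlr5 had -0.73 (SE 0.234, adjusted p = 0.0346), and was called at -1.05 without the second mutant embryo. These leave-outs thus gave 2, 2 and 3 called members. Macrophage and monocyte markers summed to 280 to 447 RPKM against 216 to 242 RPKM in the controls, and enterocyte markers to 18230 to 24960 RPKM against 33950 to 38680 RPKM. The endothelial sum was also higher and the smooth muscle sum lower without overlap, and the part of these cells was not tested.

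C362A Mlkl-/- Casp1-/- intestines still had 4 members above and 2 below the controls, with 6.79% of all genes called higher and 3.73% lower. There was no overlap between groups for 8 members, as for 51% of all genes. The 4 were Tlr3 (log2 fold change 2.99, adjusted p = 1.01e-07), Tlr2 (adjusted p = 4.61e-08), Tlr1 (1.48, adjusted p = 0.000805) and Tlr9 (1.24, adjusted p = 0.00306). The other two were Tlr5 (-1.31, adjusted p = 1.59e-06) and Tlr8 (-1.08, SE 0.306, adjusted p = 0.0141). Tlr8 was at 0.140, 0.109 and 0.202 RPKM, under the controls' 0.354, 0.301 and 0.305 RPKM. Its call was lost without the second mutant embryo (-0.92, adjusted p = 0.062) and with a larger prior count (-0.98). Tlr4 (0.80, adjusted p = 0.0274) and Tlr13 (0.56, adjusted p = 0.0525) were not called. Macrophage and monocyte markers summed to 320 to 358 RPKM against 184 to 221 RPKM in the controls, and epithelial markers to 2569 to 2739 RPKM against 1586 to 1900 RPKM. Sums for neutrophils, dendritic cells and T and NK cells were also above the controls without overlap, and the part of these cells was not tested.

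Ifnar1 encodes a chain of the receptor for type I interferons. Of the receptors, 2 of 10 were called higher and Tlr5 lower when Ifnar1 was lost on top of Casp1, where 3.28% of all genes were called higher and 2.03% lower. Tlr3 measured 3.45, 3.55 and 3.76 RPKM in D387A Cflar-/- Mlkl-/- Casp1-/- Ifnar1-/- embryos against 1.35, 1.24 and 2.59 RPKM with intact Ifnar1 (log2 fold change 1.06, SE 0.199, adjusted p = 0.00139). Tlr1 measured 1.86, 2.51 and 2.40 RPKM against 0.831, 1.01 and 1.48 RPKM (log2 fold change 1.03, SE 0.249, adjusted p = 0.00587). Tlr5 measured 1.43, 1.12 and 0.992 RPKM against 2.90, 3.97 and 1.66 RPKM (log2 fold change -1.27, SE 0.248, adjusted p = 0.00174). None of these groups overlapped, as for 5 members and 35.7% of all genes, and the third embryo of the comparison group was the nearest to the Ifnar1-/- values each time.

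This comparison depended on single embryos. Over all genes, leaving out 1 embryo gave between 582 and 1740 calls, against 603 higher and 372 lower with all. Without the second D387A Cflar-/- Mlkl-/- Casp1-/- embryo 0 members were called (Tlr1 0.97, Tlr3 0.87 and Tlr5 -0.95), and without the first 1 was, Tlr5. Without the third, 4 were called, with Tlr2 added at 1.34 (adjusted p = 5.46e-05). Tlr1 was also lost without the second (0.95) or the third (0.98) Ifnar1-/- embryo. Tlr2 at 7.03, 7.32 and 7.80 RPKM was the highest of any intestine in the D387A set, and with all embryos its log2 fold change of 0.85 (adjusted p = 0.0204) stayed under the threshold. The marker sums of T and NK cells (7.47 to 9.82 against 4.72 to 5.87 RPKM) and of the epithelium (2544 to 2667 against 1582 to 2466 RPKM) were higher without Ifnar1, and those of fibroblasts (807 to 838 against 959 to 1087 RPKM) and endothelium (62.7 to 71.3 against 84.9 to 94.0 RPKM) lower, all without overlap. Their part in the receptor values was not tested. The sums of macrophages and monocytes (403 to 482 against 280 to 447 RPKM), neutrophils (48.2 to 66.2 against 16.5 to 50.3 RPKM) and enterocytes (20480 to 29060 against 18230 to 24960 RPKM) overlapped between the groups.

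Compared with the Mlkl-/- controls, the Ifnar1-/- intestines had 4 members called higher and Tlr5 lower, against 6.76% and 5.64% of all genes. The groups did not overlap for 7 members, as for 56.9% of all genes. Tlr2 was at a log2 fold change of 2.71 (SE 0.288, adjusted p = 1.71e-06), Tlr3 at 2.00 (SE 0.212, adjusted p = 1.7e-06), Tlr1 at 1.56 (SE 0.260, adjusted p = 0.00012), Tlr4 at 1.30 (SE 0.214, adjusted p = 0.000104) and Tlr5 at -1.997 (SE 0.248, adjusted p = 7.34e-06). Tlr13 at 0.86 (adjusted p = 0.00114) was under the fold threshold, and was called at 1.02 without the first control. Macrophage and monocyte markers summed to 403 to 482 RPKM in these intestines and neutrophil markers to 48.2 to 66.2 RPKM, both above the controls. The enterocyte sum of 20480 to 29060 RPKM was below the 33950 to 38680 RPKM of the controls. Dendritic cell and epithelial sums were also higher and fibroblast and smooth muscle sums lower without overlap. The part of these cells in the receptor values was not tested.

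Fadd encodes the adaptor that binds caspase-8 at death receptors. When Fadd was lost on top of Casp1, Tlr3 was the member called, while 2.56% of all genes were called higher and 0.877% lower. Tlr3 measured 4.52, 5.80 and 5.94 RPKM in D387A Cflar-/- Mlkl-/- Casp1-/- Fadd-/- embryos against 1.35, 1.24 and 2.59 RPKM with intact Fadd (log2 fold change 1.65, SE 0.200, adjusted p = 5.24e-05). Values did not overlap between the groups for this member only, as for 29.6% of all genes, and it was called in all 6 fits that left out 1 embryo. Tlr2, by contrast, had 2.83, 3.72 and 2.30 RPKM against 2.90, 2.95 and 6.48 RPKM (log2 fold change -0.48, adjusted p = 0.234), with overlap, and Tlr5 had a log2 fold change of 0.33 (adjusted p = 0.36). In the same comparison the enterocyte sum was 35320 to 40790 RPKM without Fadd against 18230 to 24960 RPKM with it, and the macrophage and monocyte sum 242 to 265 RPKM against 280 to 447 RPKM, both without overlap. Fibroblast and endothelial sums were also lower without overlap. Their part in the Tlr3 difference was not tested.

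The Fadd-/- intestines differed from the Mlkl-/- controls in 2 members, with 2.81% of all genes called higher and 0.975% lower. There was no overlap between groups for 6 members, as for 38% of all genes. Tlr3 was 6.04-fold higher (log2 fold change 2.59, SE 0.213, adjusted p = 1.22e-06), and Tlr2 had a log2 fold change of 1.39 (SE 0.290, adjusted p = 0.00287). Tlr1 (0.80, adjusted p = 0.0459), Tlr9 (0.99, adjusted p = 0.163) and Tlr5 (-0.40, adjusted p = 0.263) were not called. The marker sums of 242 to 265 RPKM for macrophages and monocytes, 20.5 to 53.2 RPKM for neutrophils and 35320 to 40790 RPKM for enterocytes overlapped or, for macrophages and monocytes, met the range of the controls at 242 RPKM. Epithelial markers (2160 to 2335 RPKM) were above, and fibroblast (800 to 851 RPKM) and smooth muscle markers (1365 to 1623 RPKM) below the controls without overlap, and their part was not tested.

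**Figure D5:**
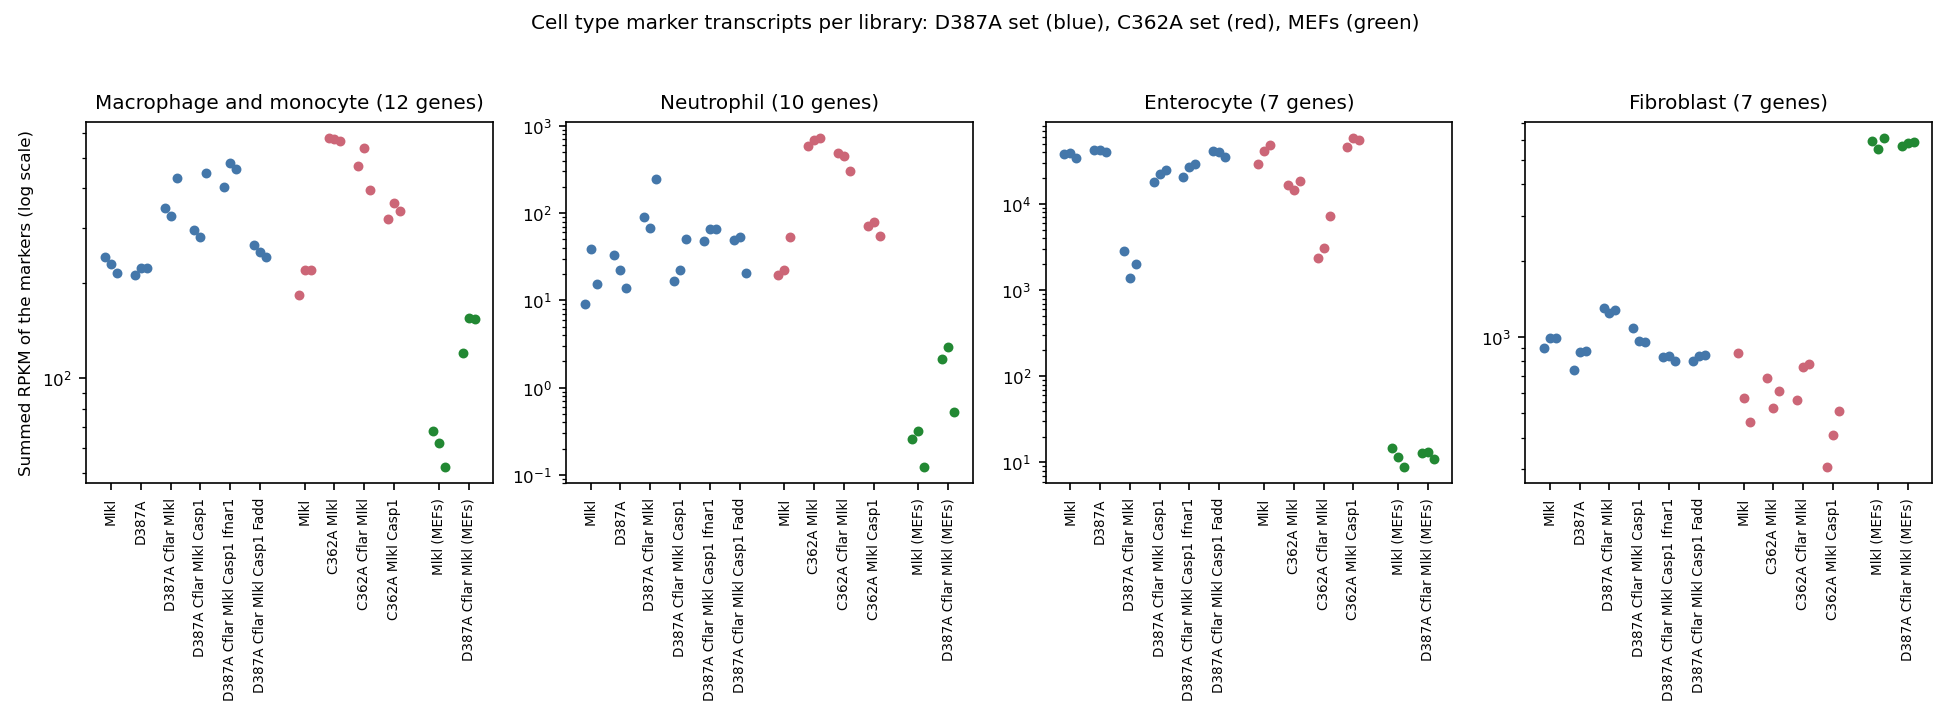
Summed RPKM (vertical axis, logarithmic) of the marker genes of macrophages and monocytes (12 genes), neutrophils (10), enterocytes (7) and fibroblasts (7) in every library, by genotype. Neutrophil markers reach 582 to 716 RPKM in C362A Mlkl-/- intestines, and fibroblast markers are highest in MEFs.

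MEFs had another makeup of receptors. As the sets were normalized separately, levels can be set side by side only roughly. Tlr4 led in Mlkl-/- MEFs with 5.48, 5.18 and 4.83 RPKM, where the control intestines of both sets had 0.249 to 0.442 RPKM, and Tlr5 was at 0.595 to 0.886 RPKM. Tlr1 was at 0.179, 0.274 and 0.210 RPKM. Tlr9 had 6, 0 and 0 reads in Mlkl-/- and 2, 0 and 3 reads in D387A Cflar-/- Mlkl-/- MEFs, too few to be tested. Fibroblast markers summed to 5511 to 6075 RPKM in MEFs and to 306 to 1295 RPKM in intestines, while the enterocyte sum in MEFs was 8.86 to 14.7 RPKM, so the label of the cells held.

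Between D387A Cflar-/- Mlkl-/- and Mlkl-/- MEFs, edgeR called 0 of 9 members, where 0.0711% of all genes tested were called, all higher. At an unadjusted p under 0.05 there was 1 member, Tlr2, with 5.08, 6.54 and 6.61 RPKM against 3.27, 3.06 and 1.97 RPKM. The groups did not overlap, and the difference was 2.18-fold (log2 fold change 1.13, SE 0.195, adjusted p = 0.141). With DESeq2 (adjusted p = 9.11e-06) and in edgeR without the filter on low counts (adjusted p = 0.000264) Tlr2 was called, so its status depends on the method. Leaving out 1 library, edgeR called 0 members each time and 2 to 14 of all genes, against 11 with all libraries. Tlr1 (0.146, 0.167 and 0.132 RPKM, log2 fold change -0.58, adjusted p = 0.838) and Tlr13 (0.719, 0.861 and 1.05 RPKM against 0.710, 0.606 and 0.681 RPKM, adjusted p = 0.8) also did not overlap, as did 12.5% of all genes. Tlr4 measured 5.69, 4.87 and 5.32 RPKM in the mutant MEFs (log2 fold change 0.03).

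The macrophage gene Lyz2, which encodes a lysozyme, was called higher in the mutant MEFs, at 107 ± 15.4 RPKM against 26.9 ± 3.38 RPKM (SD, n = 3; log2 fold change 1.99, edgeR adjusted p = 0.00122). The sum of the 12 macrophage and monocyte markers was 121 to 156 RPKM against 52.4 to 68.0 RPKM. The other 11 macrophage and monocyte markers were not called, among them Csf1r (0.20) and C1qa (0.04). The 10 neutrophil markers summed to 0.529 to 2.91 RPKM in the mutant and to 0.123 to 0.315 RPKM in the Mlkl-/- MEFs, without overlap. S100a8, Camp and Retnlg had no read in Mlkl-/- MEFs, and Retnlg and Cxcr2 had none in the mutant MEFs. The part of other cells in the Tlr2 difference was not tested.

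The effect of the mutant genotype differed between intestines and MEFs for 7 of 10 members by an interaction term, against 15.3% of all genes. The difference of the 2 log2 fold changes was 2.35 for Tlr1 (SE 0.440, adjusted p = 0.000202), 1.96 for Tlr3 (adjusted p = 2.05e-05), 1.53 for Tlr4 (adjusted p = 3.71e-05), 1.22 for Tlr13 (adjusted p = 0.000823), 1.51 for Tlr8 (adjusted p = 0.0188) and -2.35 for Tlr5 (adjusted p = 1.86e-05). For Tlr2 it was 1.01 (SE 0.386, adjusted p = 0.0442), and this call was lost in 9 of the 12 fits that left out 1 library, with values from 0.85 without the second control intestine to 1.06 without the third mutant MEF library. It remained without the third control intestine, the second mutant intestine or the third Mlkl-/- MEF library. Tlr8 was lost without the first control intestine (1.35, adjusted p = 0.055) or the first Mlkl-/- MEF library (1.33, adjusted p = 0.0547). Tlr6 (1.07, adjusted p = 0.061) was not called, unless the first mutant intestine (1.39), the third Mlkl-/- MEF library (1.23) or the second mutant MEF library (1.23) was left out. Tlr7 (0.66, adjusted p = 0.215) was called only without the third mutant MEF library (1.17), and for Tlr9 (1.30, adjusted p = 0.518) the MEFs gave almost no reads. With the replicate number as a block, which pairs the MEF libraries, Tlr6 was called at 1.01 (adjusted p = 0.0464).

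Other genes of the pathway were taken from lists of 12 co-receptors and chaperones, 6 adaptors, 15 kinases and ubiquitin ligases, 6 transcription factors and 10 negative regulators. In D387A Cflar-/- Mlkl-/- intestines, where 9.4% of all genes tested were called higher and 12.8% lower, 2 of the 12 co-receptor genes were called higher, Cd14, which hands lipopolysaccharide to Tlr4 (log2 fold change 3.03, SE 0.305, adjusted p = 1.84e-07), and Lbp, which binds it in plasma (2.09), and 1 lower, the scavenger receptor gene Cd36 (-2.02). Of the adaptors, 2 of 6 were called higher, Ticam2 (2.18), which links Tlr4 to Ticam1, and Pik3ap1 (1.26). Of 15 kinase and ligase genes 1 was called, the ligase gene Traf3 (1.25), and the list's median of 0.168 was near that of all genes, -0.00646. Of the transcription factors 3 of 6 were called higher, among them the NF-κB subunit gene Rel (1.94) and Irf5 (1.37). Of the negative regulators 5 of 10 were called higher, including the inhibitor of NF-κB gene Nfkbia (2.73) and Atf3 (2.47), and 1 lower, Sigirr (-1.83), a receptor known to restrain this pathway in the epithelium.

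The same lists in C362A Mlkl-/- intestines, where 10.4% of all genes tested were called higher and 7.55% lower, gave 5 of 12 co-receptor genes higher and 1 lower, with Cd14 (log2 fold change 3.62), Cd180 (2.46) and Cd36 (-1.996) as the largest. Among the rest, 3 of 6 adaptors rose, led by Pik3ap1 (1.79) and Ticam2 (1.72), 0 of 15 kinase and ligase genes were called by edgeR with 9 at an unadjusted p under 0.05, 3 of 6 transcription factors rose, led by Irf7 (3.79) and Irf5 (2.99), and 5 of 10 negative regulators rose, led by Atf3 (4.46) and Socs1 (3.47). C362A Cflar-/- Mlkl-/- intestines had Cd14 at 3.43, Ly86 at 1.72, Cd36 at -2.39, Ticam2 at 1.98, Myd88 at 1.01, Ticam1 at -1.21, Irf7 at 2.73, Irf5 at 2.09, Atf3 at 3.54, Nfkbia at 2.44 and Sigirr at -1.36. In D387A intestines with intact Cflar, edgeR called 0 of the 49 genes of these lists, with 2 at an unadjusted p under 0.05.

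Cd14 was at a log2 fold change of 1.15 (adjusted p = 0.0145) in D387A Cflar-/- Mlkl-/- Casp1-/-, at 2.44 (adjusted p = 7.31e-06) with Ifnar1 also lost, and at 1.21 (adjusted p = 0.000944) in C362A Mlkl-/- Casp1-/- intestines, and was not called where Fadd was lost. The interferon-inducible Irf7 was at 1.97 (adjusted p = 0.0171), 3.59 (adjusted p = 9.73e-05) and 3.54 (adjusted p = 0.000445) in the D387A intestines lacking Casp1, Casp1 and Ifnar1, and Casp1 and Fadd, and at 4.72 (adjusted p = 9.24e-09) in C362A Mlkl-/- Casp1-/- intestines, where Irf5 (1.23), Atf3 (4.34), Myd88 (1.55), Tbk1 (1.36), Peli1 (1.29) and Socs1 (2.81) were also higher and Sarm1 (-1.29) lower. In the D387A intestines lacking Casp1, Irf7 ranged from 54.6 to 422 RPKM over the 3 embryos, which overlapped the 37.0 to 65.1 RPKM of the controls, and the 6 transcription factors together summed to 127, 155 and 510 RPKM, the third embryo again standing apart. Of the 49 genes of the lists, 7 were called higher in these intestines, among them Atf3 (2.56, adjusted p = 7.63e-05), Nfkbia (2.09, adjusted p = 3.84e-05) and Ticam2 (1.35, adjusted p = 0.0383), where 2.16% of all genes were called higher. With Ifnar1 also lost 14 were called higher and 1 lower, against 6.76% and 5.64% of all genes. They included Atf3 (3.46), Nfkbia (2.75), Lbp (1.82), Irf5 (1.49), Ticam2 (1.41), Pik3ap1 (1.33), Traf3 (1.06) and the kinase gene Ikbke (1.30), and the lower one was Cd36 (-1.38). Myd88 (1.02), Tbk1 (1.15), Atf3 (3.58) and Socs1 (2.77) were called in the Fadd-/- intestines. In MEFs Nfkbia (1.12, SE 0.0670, adjusted p = 0.00122) was the gene of these lists that was called.

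The genes whose pattern was most like each receptor were found by Pearson's r over the mean log2 CPM of the 10 intestine genotypes, among 18195 genes, as a description. Nearest to Tlr3 were Iigp1 (0.991), Psmb8 (0.991) and Tgtp1 (0.990). Tlr4 was nearest to Cd14 (0.991), Hs3st1 and Ctsc (both 0.985), and Tlr2 to Cxcl16 (0.982), Tnfaip3 (0.979) and Ripk3 (0.978). Tlr13 was nearest to Cxcr2 (0.989), Nlrp3 (0.988) and 1110002E22Rik (0.984), and Tlr6 to Cd300lf (0.989), Cd300c2 (0.983) and Milr1 (0.980). For Tlr5 the 3 were Gm34376 (0.989), Cys1 (0.985) and Wdr91 (0.982), for Tlr1 Dnajb6 (0.980), Gm19610 and Chic2 (both 0.972), for Tlr9 1500009C09Rik, Gbp4 (both 0.975) and Csrnp1 (0.969), for Tlr8 Emb (0.971), Lrrk2 (0.965) and Ntng2 (0.963), and for Tlr7 Gm1966 (0.971), Arhgap15 and Ly6c2. These points share their libraries and sets, and genotype means over 2 sets are few.

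Among the members themselves the same measure was highest for Tlr1 with Tlr6 (0.955), Tlr4 with Tlr13 (0.954) and Tlr6 with Tlr7 (0.935). Tlr2 was nearest to Tlr3 (0.887). Tlr5 was negative with all 9 other members, from -0.92 with Tlr4 to -0.527 with Tlr7, while all other pairs were positive, the lowest being Tlr2 with Tlr8 (0.315). With 10 genotype means these values are given without a test.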

How the data were processed

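The authors aligned the reads with GSNAP to GRCm38 (mm10), kept uniquely mapped reads and deposited exon read counts per gene, not normalized. They also deposited RPKM and gene widths. The counting tool, annotation and use of strand are not given in the sources used here. The paper's methods and the sample labels name different library kits and sequencers for the intestines, so the protocol is unclear. RPKM shown here were recomputed from the deposited counts and widths on TMM-scaled library sizes, each set scaled by itself.

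Tests on the deposited counts used edgeR 4.0.16 in R 4.3.3, with the quasi-likelihood test, filterByExpr (minimum count 10, minimum total 15), TMM and a prior count of 0.125, with all groups of a set in 1 fit of 18360, 19408 or 15465 genes (D387A, C362A, MEFs) and Benjamini-Hochberg adjustment over them. Calls need a log2 fold change above 1 or below -1 and an adjusted p under 0.05, the study's thresholds; the study itself used limma. The standard error is the fold change over the square root of the F statistic. Interaction terms were fitted over 30 libraries (intestine sets, 19643 genes) or 24 (intestine and MEFs, 18862 genes). The fit was also run on simulated counts that held no change in cell makeup between groups. That run therefore does not check the tests under such changes. With 3 against 3, a two-sided exact permutation test cannot go below 0.1, so none was used.

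The members, pathway lists and markers were chosen with earlier results of these data known. Named beside the members are, in each pathway list and comparison with a control, the called genes with the largest changes (up to 2 each way), the 3 genes most like each member, and the targeted genes. Marker genes named in the text were chosen after their values were seen. Other settings tried were DESeq2 1.42.0, limma-voom (limma 3.58.1), other size factors, no or a stricter filter (mean of at least 50 reads), another prior count (2), a fit of the 2 groups alone, raw totals for RPKM, a block for the replicate number, and single libraries omitted in turn. No library was left out of the results. The paper's legends call the Mlkl-/- intestines littermates in several comparisons. Which libraries shared a litter is not given, and the tests did not use litter. The p-values cover the spread between these libraries.

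Same-numbered MEF libraries deviated together in 3 of 3 pairs (r of 0.182 to 0.308, all over 0.1), so the numbers pair the MEFs, as a finding from the data. In the intestines this held for 7 of 45 pairs (D387A) and 4 of 18 (C362A), so there the numbers are only names. Motifs were searched in RefSeq promoters of GRCm38.p6.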

Additional observations from a re-analysis of the deposited data

Results flagged for a closer look

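The change on Casp1 loss differed between D387A Cflar-/- Mlkl-/- and C362A Mlkl-/- intestines for 2 receptors. This came from a test of the difference itself, which called 5.73% of all genes. The difference was 1.44 on the log2 scale for Tlr8 and 1.16 for Tlr13, and both fell more in the C362A intestines. The Tlr8 call was lost in 6 of the 12 fits that left out 1 embryo and under limma-voom (adjusted p = 0.0551), and the Tlr13 call without the third C362A Mlkl-/- embryo (0.98). The 2 backgrounds also differ in Cflar, and the neutrophil markers summed to 582 to 716 RPKM before Casp1 loss in the C362A and to 68.0 to 244 RPKM in the D387A intestines. Their part in the difference was not tested.

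The effect of D387A Cflar-/- Mlkl-/- against Mlkl-/- differed between intestines and MEFs for 7 receptors, and for 15.3% of all genes. It was greater in intestines by 2.35 for Tlr1, 1.01 for Tlr2, 1.96 for Tlr3, 1.53 for Tlr4, 1.51 for Tlr8 and 1.22 for Tlr13, and lower by 2.35 for Tlr5 (-2.35). Of the 12 fits that left out 1 library, 9 lost the call for Tlr2 and 2 that for Tlr8. In MEFs the neutrophil markers summed to at most 2.91 RPKM and the enterocyte markers to at most 14.7 RPKM, and the part of these cells in the difference was not tested.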

How the results depend on the processing

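No receptor's direction reversed where it had been called. The count of called receptors in MEFs was 0 of 9 in the chosen test and 1, Tlr2, both with DESeq2 and without the filter on low counts; the cause was not tested. Under limma-voom, DESeq2, other size factors, no filter, the stricter filter, the larger prior count and the fit of only the 2 groups, the other counts of called receptors between 2 groups stayed within 1.5 times, although the stricter filter left 6 members to test in the D387A set and 7 in MEFs. The 3 differences of effects were recomputed with limma-voom, without the filter, with the replicate block and with libraries left out, and not under the other settings. Their counts stayed within 1.5 times with limma-voom and without the filter. Leaving out each library gave 1 to 3 called receptors for D387A Cflar-/- Mlkl-/- Casp1-/- against Mlkl-/-, 0 to 4 for Ifnar1 loss, 3 to 6 for Casp1 loss in the D387A set, 1 to 3 for the difference in Casp1 loss, 5 to 8 for the difference between tissues and 0 to 0 for the MEFs. Single receptors kept their call in 417 such fits, lost it in 33 and gained one in 22. limma-voom called Tlr3 (-1.01) and lost Tlr8 (adjusted p = 0.0551) in the difference of Casp1 loss and called Tlr3 (-1.06) in the Casp1 loss of the D387A set, and the fit of only 2 groups lost Tlr3 on Ifnar1 loss (adjusted p = 0.0513).

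With the replicate number as a block, the pairing raised the genes called in MEFs from 11 to 19, with 0 receptors among them, and added Tlr3 on Casp1 loss in the D387A set (-1.01) and Tlr6 in the difference between tissues (1.01). It changed no other call. RPKM on raw library totals moved 14 of 120 group means by more than 1 SD. With unscaled totals the median log2 fold change of all genes lay between -0.295 and 0.305 over the comparisons, and with TMM between -0.0344 and 0.0293. Unscaled totals also moved the share of higher calls among all calls, which against Mlkl-/- went from 49.7% to 64.4% in D387A Cflar-/- Mlkl-/- Casp1-/-, from 54.5% to 71.5% in C362A Cflar-/- Mlkl-/- and from 64.6% to 48.8% in C362A Mlkl-/- Casp1-/- intestines. On top of Casp1 loss the share went from 61.8% to 50% for Ifnar1 loss and from 74.5% to 52.1% for Fadd loss. In the C362A set it went from 49.5% to 25.8% for Casp1 loss and from 23.9% to 40.8% for Cflar loss. The receptor calls were not recomputed on unscaled totals. Depth limits all members, which had 0 to 967 reads per library.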
